A study of Mus musculus with 24 samples.

Results

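The expression of 10 genes of the colonic enteroendocrine cells was examined in RNA from the colons of 24 mice in 6 groups of 4. The genes were the hormones Insl5, Gcg, Pyy, Sst, Cck and Nts, the serotonin-synthesizing enzyme gene Tph1, the granule proteins Chga and Chgb and the transcription factor Neurod1. They were found by matching the probe accessions to gene symbols, which gave 12 of the 56605 probes and 10 of the 45616 gene names on the array. Of the 10 genes, 9 had 1 probe and Tph1 had 3. The mice were C57BL/6J males (M) and females (F) that had undergone a sham operation, and ovariectomized females (F(OVX)), 7 weeks old on arrival. Each was fed a low-fat diet (LFD) or a high-fat diet (HFD) for 14 weeks. Every group, the LFD groups included, was injected with the carcinogen azoxymethane (AOM) at 10 mg/kg and then drank dextran sulfate sodium (DSS), a chemical that injures the epithelium, in 3 cycles, so that colitis-associated colorectal tumors formed. No untreated colon was included, and the colons were taken 75 days after AOM. By the methods, the RNA came from what was left of the distal colon after a piece had been fixed, and from the animals closest to the average body weight of their group, 5 per group, of which the labels give 4.

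Enteroendocrine cells are single secretory cells scattered among the absorptive and goblet cells of the gut epithelium. They sense nutrients, bile acids and bacterial metabolites and release peptides or serotonin towards vessels and nerves. In the colon, L-cells make GLP-1 from proglucagon (Gcg), peptide YY (Pyy) and insulin-like peptide 5 (Insl5), whereas D-cells make somatostatin (Sst) and enterochromaffin cells make serotonin with tryptophan hydroxylase 1 (Tph1). The hormones a cell makes change with its position along the gut: Insl5 is known as a product of the distal colon, and Nts (neurotensin) and Cck (cholecystokinin) as products of more proximal segments. Chga and Chgb are proteins of the secretory granules of these cells, and Neurod1 is a transcription factor of their differentiation. Some of these genes, Chga, Chgb and Sst among them, are also expressed by enteric neurons.

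Levels are given as log2 of the quantile-normalized signal of the brightest probe of a gene, so that a difference of 1 is a 2-fold difference. Probes of different genes differ in efficiency, and levels were therefore compared between arrays and not between genes. The share of probes well above background, the measure of depth on an array, ran from 40.5% to 61.9%, and was lowest on F(OVX) + LFD replicate 3. The brightest probes of 8 of the 10 genes were well above background on all 24 arrays. Those of Nts and Neurod1 were so on 23, missing F(OVX) + LFD replicate 2 and F(OVX) + LFD replicate 3, respectively. All 8 epithelial and all 7 goblet cell marker genes were well above background on every array. Hoxb13, a homeobox gene of the distal colon, lay between 12.58 and 14.79 on 22 arrays. It was 2.18, which was not well above background, on M + LFD replicate 1 and 5.04 on M + LFD replicate 2. The mean level of the 6 distal Hox genes examined was 2.74 and 3.90 on these 2 arrays, against 5.42 to 9.48 on the others. Hoxb13, Hoxa13 and Hoxd13 were below the range of the others on both, against the distal colon named in the methods. Hoxd12 and Hoxd11 were not well above background on them, and Hoxd10, at 5.86 and 5.56, was above its median of 2.68 on the others. Hoxd12, Hoxd11 and Hoxd10 were well above background on only 6, 4 and 8 of the 24 arrays. These means thus rest partly on dim probes. The main fitted differences that used the 2 arrays are given with and without them. Correlations between the 10 genes are given mainly without them. The other 22 arrays also fell into 2 sets in the mean of the 6 genes, with 16 at 5.42 to 6.49 and 6 at 7.75 to 9.48. The higher 6 were M + HFD replicates 1 and 4, replicate 3 of F + LFD and of F + HFD, and F(OVX) + LFD replicates 2 and 4. The arrays of M, of F and of F(OVX) were each on a slide of their own, with LFD in the first row and HFD in the second, so that slide cannot be told apart from sex and surgery, nor row from diet.

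The sequences upstream of 6 of the 10 genes are shown, as examples of genes whose levels moved together or apart in the results that follow. Insl5 was low and Nts high on the arrays with low Hoxb13, Sst and Chgb were both high there, and Gcg and Cck varied together between mice. Tph1 and Chga were also high there and Pyy was low, and these are not shown. Over the other 22 arrays, deviations from the group means had r = -0.157 for Sst and Chgb, against 0.915 for Chga and Chgb. Each is the 250 bases before the most upstream transcription start in the mouse build GRCm38.p6 (RefSeq), written 5′ to 3′ on the strand of the gene. Insl5, Pyy and Tph1 had 2 starts listed, of which only the most upstream was searched. Capitals mark the E-box CAGATG, of the kind bound by Neurod1, and the cyclic AMP response element TGACGTCA, which were searched on both strands and did not overlap.
Insl5, chr4:103027272-103027521, minus strand: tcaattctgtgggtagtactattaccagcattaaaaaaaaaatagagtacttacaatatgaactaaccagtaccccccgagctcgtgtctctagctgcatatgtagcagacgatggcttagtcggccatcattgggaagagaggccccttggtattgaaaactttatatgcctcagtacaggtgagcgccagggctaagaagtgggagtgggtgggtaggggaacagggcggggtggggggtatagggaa
Nts, chr10:102490419-102490668, minus strand: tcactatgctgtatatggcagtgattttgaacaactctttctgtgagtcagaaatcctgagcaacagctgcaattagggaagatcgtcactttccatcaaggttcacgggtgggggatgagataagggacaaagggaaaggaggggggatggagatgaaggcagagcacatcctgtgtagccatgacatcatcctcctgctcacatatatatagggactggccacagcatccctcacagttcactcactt
Sst, chr16:23890845-23891094, minus strand: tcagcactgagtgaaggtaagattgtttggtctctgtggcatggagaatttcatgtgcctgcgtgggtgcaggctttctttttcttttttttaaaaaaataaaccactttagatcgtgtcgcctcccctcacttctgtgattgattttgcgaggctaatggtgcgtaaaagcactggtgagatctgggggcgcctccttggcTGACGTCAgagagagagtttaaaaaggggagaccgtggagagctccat
Chgb, chr2:132781392-132781641, plus strand: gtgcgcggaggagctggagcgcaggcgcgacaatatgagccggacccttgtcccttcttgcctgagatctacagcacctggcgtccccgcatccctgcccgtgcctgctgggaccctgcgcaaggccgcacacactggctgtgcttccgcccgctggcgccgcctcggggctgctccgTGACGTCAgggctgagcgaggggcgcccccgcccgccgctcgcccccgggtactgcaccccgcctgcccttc
Gcg, chr2:62483654-62483903, minus strand: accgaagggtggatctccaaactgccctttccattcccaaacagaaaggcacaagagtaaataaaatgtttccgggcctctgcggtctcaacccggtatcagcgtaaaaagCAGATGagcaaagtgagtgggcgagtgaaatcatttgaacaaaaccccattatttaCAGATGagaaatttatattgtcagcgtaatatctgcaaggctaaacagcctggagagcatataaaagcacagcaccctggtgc
Cck, chr9:121495695-121495944, minus strand: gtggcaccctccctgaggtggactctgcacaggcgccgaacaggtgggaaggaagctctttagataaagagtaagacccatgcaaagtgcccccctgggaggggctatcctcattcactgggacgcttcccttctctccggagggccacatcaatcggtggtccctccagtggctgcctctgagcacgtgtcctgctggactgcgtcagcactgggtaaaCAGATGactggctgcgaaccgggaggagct
The E-box stood at 139 and 83 bases before the start of Gcg and at 30 bases before that of Cck, and 14.4% of the 32851 promoters in the table held it. The cyclic AMP response element stood 48 bases before the start of Sst and 72 bases before that of Chgb, against 1.55% of all promoters. Among the 10 promoters, the exact letters CAGATG were only in those of Gcg and Cck, and TGACGTCA only in those of Sst and Chgb. Variants of these letters, such as TGACGTAA in the Chga promoter and TGACATCA in that of Nts, were not searched. These element letters were searched after the sequences had been seen, and a link between a shared element and shared levels was not tested. CCAATAAA and CTCGTAAA, the letters of HOXB13 sites, were in none of the 10 promoters, against 1.02% and 0.11% of all promoters. A match or its absence describes these letters in this window only.

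Insl5, the L-cell peptide of the distal colon, had a range of 7.10 over the 24 arrays, exceeded among the hormones by that of Nts, but one of 2.73 without the 2 arrays with low Hoxb13, below those of Gcg (3.05), Cck (4.25) and Nts (4.34). In M + LFD it was 6.10, 7.22, 11.46 and 11.83 on replicates 1 to 4, and in M + HFD it was 12.08, 13.20, 12.34 and 12.28. The 4 M + HFD arrays all lay above the 4 M + LFD arrays, and the 2 lowest values of the series were those of the arrays with low Hoxb13. In F + LFD it was 11.25, 12.13, 10.66 and 11.90, whereas the F + HFD values were 12.20, 12.24, 12.29 and 11.94. The F(OVX) + LFD values were 12.15, 12.50, 11.83 and 10.47, and those of F(OVX) + HFD were 12.68, 12.66, 12.13 and 12.50. In both female pairs the lowest arrays were LFD arrays, and the groups overlapped. By group mean the order was F(OVX) + HFD (12.49 ± 0.25, SD, n = 4), M + HFD (12.48 ± 0.50), F + HFD (12.17 ± 0.15), F(OVX) + LFD (11.74 ± 0.89), F + LFD (11.49 ± 0.66) and M + LFD (9.15 ± 2.92), and the ranges of all neighbours in this order overlapped. In whole tissue RNA, fewer cells of a type and less RNA per cell cannot be told apart.

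**Figure D1:**
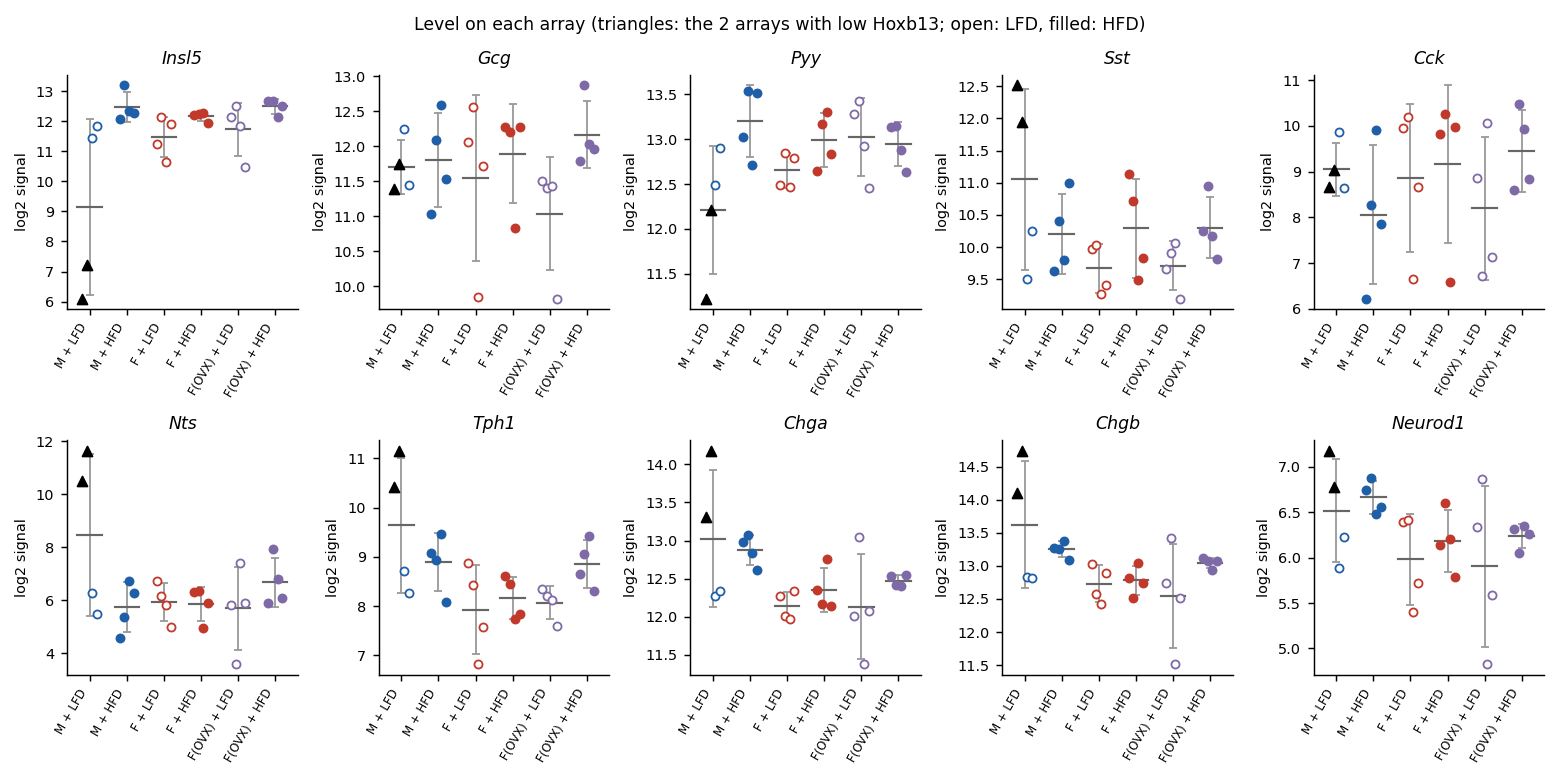
Level of the 10 genes on each of the 24 arrays, as log2 quantile-normalized signal, by group (open points LFD, filled points HFD, triangles the M + LFD arrays with low Hoxb13), with the group mean as a line and the SD as a bar (n = 4). On the 2 triangles Insl5 was 6.10 and 7.22 and Nts was 10.51 and 11.65, far from the other arrays, whereas Gcg and Cck were inside the range of the rest.

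Gcg, which encodes the precursor of GLP-1, had overlapping levels on both diets in M. It was 11.39, 11.74, 12.24 and 11.45 in M + LFD and 11.03, 12.09, 12.59 and 11.53 in M + HFD. The male groups overlapped, and the arrays with low Hoxb13 were not set apart. In F + LFD it was 12.06, 12.57, 9.85 and 11.72, whereas the F + HFD values were 12.27, 12.20, 10.84 and 12.27. Replicate 3 was the lowest array of both groups. The F(OVX) + LFD values were 11.51, 11.40, 11.43 and 9.82, and those of F(OVX) + HFD were 11.80, 12.87, 12.04 and 11.96. All 4 F(OVX) + HFD arrays were above all 4 F(OVX) + LFD arrays. The group means ran from 11.04 ± 0.81 in F(OVX) + LFD to 12.17 ± 0.48 in F(OVX) + HFD (SD, n = 4).

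Pyy, the second L-cell peptide, was 11.22, 12.21, 12.49 and 12.90 in M + LFD and 13.03, 13.54, 12.71 and 13.52 in M + HFD. Only M + HFD replicate 3 lay below the highest M + LFD array. The 2 lowest values of the series were again those of the arrays with low Hoxb13. In the female groups it stayed between 12.46 and 13.43, with overlap in both pairs. Over the 22 arrays its range of 1.08 (2.12-fold) was the narrowest of the 10 genes.

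Cck, the gallbladder-contracting and satiety peptide, varied widely between mice of the same group. It was 8.66, 9.04, 9.87 and 8.63 in M + LFD and 6.22, 8.26, 9.90 and 7.85 in M + HFD. It was 9.94, 10.19, 6.66 and 8.66 in F + LFD and 9.81, 10.26, 6.59 and 9.98 in F + HFD, with replicate 3 the lowest of both groups, as for Gcg. The F(OVX) + LFD arrays had 8.87, 6.71, 10.06 and 7.13, and those of F(OVX) + HFD had 8.59, 10.47, 9.94 and 8.83. Diets overlapped in each pair, and the range over the 22 arrays was 19.0-fold. Nts, a peptide that slows gastric emptying, was 10.51, 11.65, 6.28 and 5.47 in M + LFD and 4.59, 5.36, 6.70 and 6.28 in M + HFD. Apart from the 2 arrays with low Hoxb13 it stayed at or below 7.93 on all others. The lowest value, 3.59 on F(OVX) + LFD replicate 2, was not well above background. Sst, which inhibits the release of other gut hormones, was 12.52, 11.94, 9.50 and 10.25 in M + LFD and 9.63, 10.41, 9.80 and 10.999 in M + HFD. On the female arrays it lay between 9.20 and 11.14, and the diets overlapped in all 3 pairs.

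Tph1, the rate-limiting enzyme of serotonin synthesis in the gut, was 10.42, 11.16, 8.71 and 8.26 in M + LFD and 9.08, 8.94, 9.47 and 8.09 in M + HFD. Its F(OVX) + LFD levels were 8.36, 8.20, 8.12 and 7.59, and those of F(OVX) + HFD were 8.65, 9.07, 9.42 and 8.31. Only F(OVX) + HFD replicate 4 lay below the highest F(OVX) + LFD array. In the F groups it ran from 6.83 to 8.87 and overlapped between diets. The other two Tph1 probes were dim, well above background on 4 and 11 of 24 arrays. Chga was 13.31, 14.18, 12.27 and 12.34 in M + LFD, and its M + HFD levels were 12.98, 13.07, 12.84 and 12.62. Chgb was 14.09, 14.74, 12.84 and 12.81 in M + LFD, and its M + HFD levels were 13.27, 13.26, 13.38 and 13.09. For both granule proteins the highest arrays were the 2 with low Hoxb13, and every M + HFD array lay between those and the other two M + LFD arrays. Neurod1 was 7.18, 6.78, 5.89 and 6.23 in M + LFD, and its M + HFD levels were 6.74, 6.88, 6.48 and 6.55, with the diets overlapping only through the arrays with low Hoxb13. On the F arrays Chga lay between 11.96 and 12.75 and Chgb between 12.42 and 13.04. Chga ran from 11.38 to 14.18, Chgb from 11.52 to 14.74 and Neurod1 from 4.83 to 7.18 over the 24 arrays. The lowest array of all 3 genes was F(OVX) + LFD replicate 3, the array with the fewest probes above background, and the part of its depth in this was not tested.

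The 2 M + LFD arrays with low Hoxb13 were set against the other 22 arrays as a description, since both belong to 1 group. On replicates 1 and 2, Insl5 was 65.9-fold and 30.3-fold below the median of the other 22 arrays, and Pyy was 3.17-fold and 1.59-fold below it. Nts was 23.03-fold and 50.9-fold above the median of the 22, Sst 5.95-fold and 3.98-fold, and Tph1 4.07-fold and 6.80-fold. Chga was 1.96-fold and 3.59-fold above it and Chgb 2.26-fold and 3.55-fold. Thus Insl5 and Pyy lay below, and Nts, Sst, Tph1, Chga and Chgb above, the whole range of the 22 arrays on both arrays. Gcg and Cck were inside that range, and Neurod1 was above it on replicate 1 (7.18, against at most 6.88) and inside it on replicate 2 (6.78). The dim Tph1 probes were also above the range of the 22 on both arrays. The count above was 5 of 10 genes, against 5.08% of the 23081 genes measured on at least 12 arrays, and the count below was 2 of 10, against 3.48%. Of the L-cell products, Insl5 and Pyy were thus low on these arrays and Gcg was inside the range of the rest. The 2 arrays had the highest shares of probes well above background of the series, 61.9% and 60.9%, and the part of depth in these differences was not tested.

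**Figure D2:**
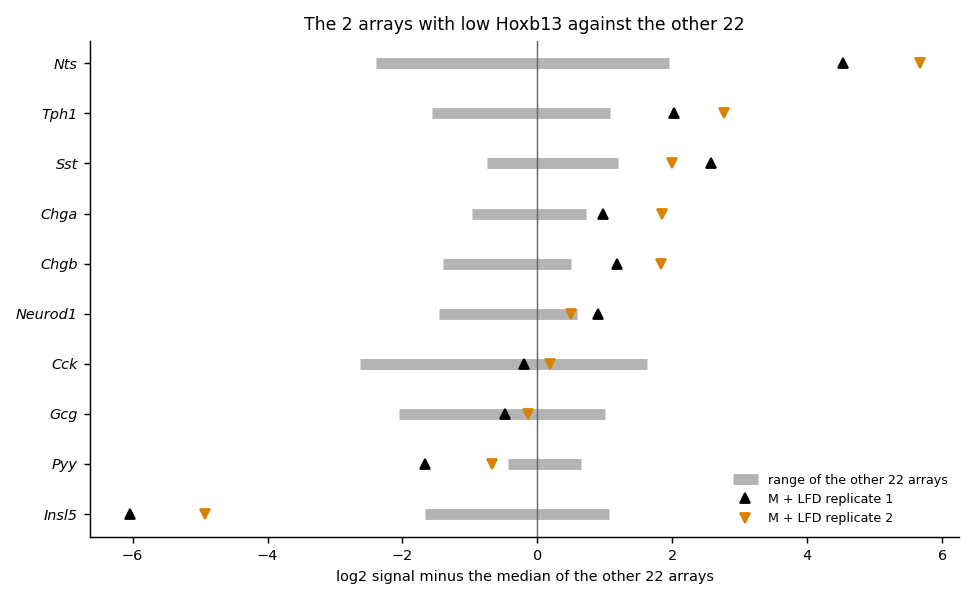
Level of each gene on M + LFD replicate 1 and replicate 2, the arrays with low Hoxb13, minus the median of the other 22 arrays (log2), with the range of those 22 as a grey bar. Nts was 4.53 and 5.67 above the median and Insl5 was 6.04 and 4.92 below it, and Gcg and Cck lay inside the bars.

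Other genes of hormone production, hormone response and serotonin handling were also outside the range of the 22 arrays on these 2 arrays. The cells that express them were not tested. Among the other gut hormones, secretin (Sct) was higher, at 14.03 and 13.63 against 9.05 to 12.23, as were Penk and Iapp, and pancreatic polypeptide (Ppy) was lower, at 4.68 and 7.87 against 8.29 to 10.43. Of the 12 genes of granules and prohormone processing, the prohormone convertases Pcsk1 and Pcsk2, Scg3, Vgf and Cadps were higher and the amidating enzyme Pam was lower. In serotonin handling, the vesicular transporter Slc18a2 was higher and the decarboxylase Ddc and the reuptake transporter Slc6a4 were lower. The transcription factor Isl1 was lower, as were the receptor genes Npy1r and Htr4. The mean level of the 10 enteric neuron markers was 8.15 and 8.43 on the 2 arrays, against 6.17 to 8.15 on the others, and the neuronal genes Elavl4, Uchl1 and Prph were above the range of the 22. All 10 neuronal markers were well above background on both. The mean of the 8 epithelial markers was 14.91 and 15.03, against 14.23 to 14.96. The 7 smooth muscle markers (mean 11.39 and 12.18) and the goblet cell markers were inside the range of the 22, and the part of the neuronal genes in the higher Chga, Chgb, Sst and Nts was not tested.

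The effect of HFD was tested in each pair with limma over all genes, and a gene was called at an unadjusted p below 0.05 and a fold of 1.5 or more, as in the methods. In M, Insl5 was 10.03-fold higher in HFD (log2 difference 3.33 ± 1.25, SE; adjusted p = 0.801) and Pyy was 1.99-fold higher (0.99 ± 0.36; adjusted p = 0.801). No gene of the array passed an adjusted p of 0.05 with limma in M, F or F(OVX), and 1250, 643 and 708 genes had an unadjusted p under 0.05. Insl5 and Pyy were 2 of 10 genes called in M, against 4.3% of 20511 genes tested, and the median of the 10 was -0.26, against 0.01 over all genes. The call on Insl5 ended when replicate 1 (2.31) or 2 (2.68) of M + LFD, or replicate 2 of M + HFD (3.08), was left out, and that on Pyy without M + HFD replicate 2 (0.88) or replicate 4 (0.89). Neither was called with the test of the study, which takes the spread of each gene alone, and with Hoxb13 as a covariate Insl5 was 0.56 and Pyy 0.37 higher, neither called. Without both arrays with low Hoxb13, Insl5 was 1.78-fold higher in HFD (0.84 ± 0.34; adjusted p = 0.926) and Neurod1 was 1.52-fold higher (0.60 ± 0.20; adjusted p = 0.925), again 2 of 10, against 4.22%. Pyy was then 0.50 ± 0.29 higher, Chga 0.57 ± 0.19 and Chgb 0.42 ± 0.16, none of which was called. Gcg (0.10 ± 0.35) and Cck (-0.99 ± 0.69) were not called with all 8 arrays, nor without the 2 (-0.04 and -1.19). Nts, at -2.75 ± 1.35 with all 8 arrays, was -0.14 ± 0.61 without the 2 arrays. Sst, Tph1, Chga and Chgb, which were below zero in HFD with all arrays, were above zero without them.

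In F, none of the 10 genes was called, against 1.2% of 22083 genes. Insl5 was 0.68 ± 0.31 higher in HFD (limma, adjusted p = 0.991), and it was called when F + LFD replicate 2 (0.90) or replicate 4 (0.82) was left out, whereas it was 0.41 without F + LFD replicate 3. Of the 10 genes, 9 had a difference above zero, with a median of 0.27, against -0.0045 over all genes. The 8 enteric neuron markers tested were also all above zero in F (median 0.57), as were the 6 smooth muscle markers (median 0.46), with none called, and the part of these cells in the shift was not tested. The differences were 0.35 for Gcg, 0.33 for Pyy, 0.30 for Cck, -0.05 for Nts, 0.24 for Tph1, 0.21 for Chga, 0.05 for Chgb and 0.20 for Neurod1. Sst was 0.62 ± 0.38 higher and not called, but was called in the fit with the replicate block. Whether the replicate numbers pair the arrays was not tested.

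In F(OVX), Gcg was 2.18-fold higher in HFD (1.13 ± 0.40; adjusted p = 1) and Tph1 was 1.73-fold higher (0.79 ± 0.27; adjusted p = 1). These were 2 of 10 genes, against 2.19% of 19210 genes tested. The call on Gcg ended without F(OVX) + HFD replicate 2 (0.89), and its value was 0.72 without F(OVX) + LFD replicate 4, while that on Tph1 held without any 1 array. Both calls ended with Hoxb13 as a covariate (0.81 and 0.64), that on Gcg also with the test of the study, and that on Tph1 with the mean of its probes (0.65) or 1 fit of all arrays. The mean of the distal Hox genes was 5.76, 8.67, 5.67 and 8.27 in F(OVX) + LFD and 5.81, 5.43, 5.43 and 6.08 in F(OVX) + HFD, and its part in these differences was not tested beyond the covariate. Insl5 was 0.76 ± 0.39 higher (0.34 to 1.01 when each array was left out, and called without F(OVX) + LFD replicate 2) and Sst 0.59 ± 0.27 higher, and Pyy was at -0.07 ± 0.23, none of them called. Cck (1.26 ± 0.75), Nts (0.99 ± 0.76), Chga (0.34 ± 0.31), Chgb (0.50 ± 0.34) and Neurod1 (0.34 ± 0.39) were not called either. Of the 10 genes, 9 were above zero, with a median of 0.67. In the same groups, 4 of the 6 smooth muscle markers tested, Actg2, Cnn1, Des and Tagln, were called higher in HFD, by 0.72 to 1.25. The mean of that list was 11.14, 11.65, 10.14 and 11.60 in F(OVX) + LFD and 11.59, 12.77, 11.71 and 11.43 in F(OVX) + HFD, and all 7 of its genes were on the array. The 8 epithelial markers differed by a median of 0.22 with none called. The part of muscle in the Gcg and Tph1 differences was not tested.

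**Figure D3:**
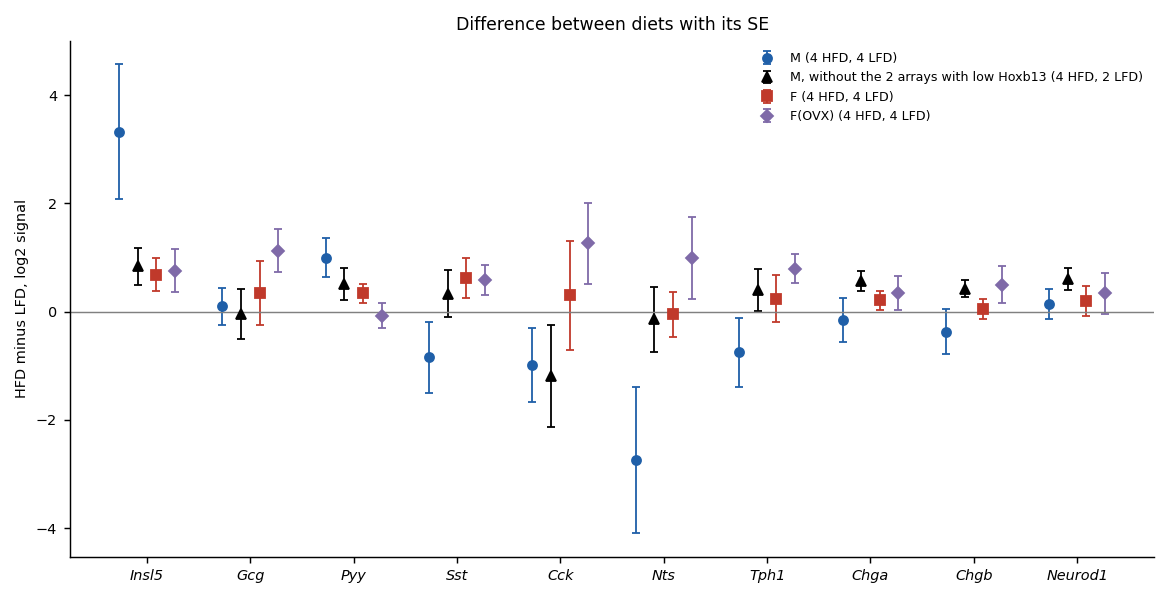
Difference between HFD and LFD in log2 signal for each gene in M, in M without the 2 arrays with low Hoxb13, in F and in F(OVX), with bars for the SE of the limma fit. Insl5 was above zero in all 3 pairs (3.33 in M, 0.84 in M without the 2 arrays, 0.68 in F and 0.76 in F(OVX)), and Nts was at -2.75 in M only with these arrays.

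With 4 arrays per group, the exact permutation of the diets has 70 assignments and a smallest two-sided p of 0.0286. That value was reached by Insl5 in M and by Gcg in F(OVX), the genes whose diets did not overlap (exact permutation, adjusted p = 0.343 over the 30 tests). Genes without overlap between diets made up 2.6% of those tested in M, where 1 of the 10 had none, 1.9% in F, where 0 of the 10 had none, and 2.3% in F(OVX), where 1 of the 10 had none. In M, the exact tests and this share included the arrays with low Hoxb13 and were not repeated without them.

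Averaged over the 3 pairs in a fit of all 24 arrays, the diet difference was called for Insl5, at 1.59 ± 0.50 (3.01-fold, adjusted p = 0.985), 1 of 10 genes, against 0.773% of 22373 genes. Its call held when any 1 of the 24 arrays was left out, with values of 1.25 to 1.89. The other 9 genes were not called, with values of -0.61 for Nts, 0.06 for Chgb, 0.09 for Tph1, 0.12 for Sst, 0.13 for Chga, 0.19 for Cck, 0.23 for Neurod1, 0.42 for Pyy and 0.53 for Gcg. Without the 2 arrays with low Hoxb13 it was 0.76 ± 0.23 (1.69-fold, adjusted p = 1), the only member called, against 1.28% of genes. Sst (0.51 ± 0.23) and Chga (0.37 ± 0.15) then had an unadjusted p under 0.05 with folds under 1.5.

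The diet difference of Insl5 was larger in M than in F by 2.64 ± 1.22 (limma, adjusted p = 0.975), 1 of 10 genes called, against 2.95%. It was larger in M than in F(OVX) by 2.57 ± 1.22 (adjusted p = 0.666), and Pyy was also larger by 1.07 ± 0.40 (adjusted p = 0.566). Nts and Tph1 differed the other way, by -3.73 ± 1.47 (adjusted p = 0.575) and -1.54 ± 0.73 (adjusted p = 0.666), which made 4 of 10 genes called, against 6.15%. When each of the 24 arrays was left out in turn, the Insl5 difference was called in 13 cases between M and F (1.63 to 3.54) and in 3 between M and F(OVX), and that of Tph1 in 7. The call on Nts ended without replicate 1 (-3.05) or 2 (-2.67) of M + LFD or F(OVX) + LFD replicate 2 (-3.03), and that on Pyy held in all 24 cases. None of these was called without the 2 arrays with low Hoxb13, where Insl5 differed by 0.15 ± 0.58 between M and F (0 of 10, against 3.17%) and by 0.08 ± 0.58 between M and F(OVX) (0 of 10, against 4.78%). Between F(OVX) and F, 0 of 10 were called, against 1.52%, and Insl5 differed by 0.08 ± 1.22. The comparisons share the M arrays.

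Over both diets, Tph1 was 2.33-fold higher in M than in F (1.22 ± 0.37; adjusted p = 0.0797), Chga 1.63-fold (0.70 ± 0.24; adjusted p = 0.12) and Chgb 1.60-fold (0.68 ± 0.25; adjusted p = 0.159), 3 of 10 genes, against 5.57%. Without the 2 arrays with low Hoxb13, Tph1 was 1.56-fold higher (0.65 ± 0.30; adjusted p = 0.367), 1 of 10 genes, against 4.63%, and Chga (0.34 ± 0.19) and Chgb (0.28 ± 0.21) were not called. Between F(OVX) and F, 0 of 10 were called, against 2.15%, and the smallest adjusted p was 0.888. The calls on Chga (0.51) and Chgb (0.50) also ended without M + LFD replicate 2 alone. Sex and slide cannot be told apart in these differences.

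The other genes of the pathway were taken from lists of gut hormones, granule and processing proteins, transcription factors, hormone receptors, serotonin handling and nutrient sensors. In M, where 4.3% of all genes tested were called, 1 of 12 transcription factors tested was called higher in HFD (Nkx2-2, 1.09 ± 0.32), as were 2 of 8 receptors, Npy1r (1.19 ± 0.48) for peptide YY and Sstr3 (1.096 ± 0.41) for somatostatin. In serotonin handling, 2 of 8 were higher, Ddc (0.80 ± 0.29) and Slc6a4 (1.43 ± 0.51). Of 5 sensors tested, the mechanosensor Piezo2 was higher (1.19 ± 0.25) and the short-chain fatty acid receptor Ffar2 lower (-1.62 ± 0.65). Of 9 granule and processing genes, 1 was called, Pcsk1, which was lower (-1.31 ± 0.54), and of 5 other hormones none was. The median differences of these lists ran from -0.11 to 0.29, against 0.01 over all genes. Without the 2 arrays with low Hoxb13 they ran from 0.07 for the other hormones to 0.60 for the granule and processing genes, against 0.004 over all genes.

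Without the arrays with low Hoxb13, Sstr3 (1.47) and Piezo2 (0.80) were still called in M. Nkx2-2 (0.68), Npy1r (0.37), Ddc (0.35), Slc6a4 (0.84), Pcsk1 (-0.43) and Ffar2 (-1.54) were not, and 4 other genes were called higher, the transcription factors Fev (0.81) and Lmx1a (0.72), both of serotonin cells, and the granule genes Pcsk1n (0.86) and Resp18 (0.91). In F, where 1.2% of all genes were called, none of the genes tested in the 6 lists was called, and 11 of 11 granule and processing genes were above zero, with a median of 0.51. In F(OVX), where 2.19% of all genes were called, the transcription factors Etv1 (0.63 ± 0.25) and Pax4 (0.60 ± 0.23), 2 of 12, and the sensor Ffar2 (1.23 ± 0.49), 1 of 5, were called higher, and no gene of the other lists was. Rxfp4, the receptor of the Insl5 peptide, was well above background on 2 of 24 arrays and was not tested, and Glp1r, the receptor of GLP-1, was so on none.

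To find members that varied together between mice, each level was taken as its deviation from its group mean. The 2 arrays with low Hoxb13 formed a cluster of their own, and correlations are given over the other 22, with permutation within groups and adjustment over 45 pairs. Of these pairs, 32 had r above 0, and 6 passed an adjusted p of 0.05. The F arrays of the same replicate number varied alike, so that the 8 F arrays may not be 8 independent points. Averaging the 2 F arrays of each number, called an F pair here, to 1 point gave 18 points. With these, 2 of the 6 passed, Gcg with Cck and Cck with Nts. The F(OVX) arrays, which correlated by number at 0.32, -0.06, 0.27 and 0.21, were not averaged. Among the 16 arrays with the lower distal Hox mean, 0 of the 45 passed. Both checks were chosen after the data had been seen. Gcg and Cck had r = 0.842 (adjusted permutation p = 0.0027) and rho = 0.862 (adjusted permutation p = 0.0018), and r was 0.969 within M (n = 6), 0.942 within F (n = 8) and 0.57 within F(OVX) (n = 8). F(OVX) + LFD replicate 2 departed from this, with Cck at 6.71, the lowest of its group, and Gcg at 11.40. With the F pairs averaged, r was 0.823 (adjusted permutation p = 0.0126), and among the 16 arrays it was 0.807 (adjusted permutation p = 0.108). On the 6 arrays with the higher distal Hox mean, Cck lay between 6.22 and 7.85 and Gcg between 9.82 and 11.53, and on the 16 others Cck lay between 8.26 and 10.47 and Gcg between 11.43 and 12.87. The part of the distal Hox set in this was not tested.

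Cck and Nts had r = 0.756 (adjusted permutation p = 0.00517) and rho = 0.782 (0.00607), with 0.878, 0.695 and 0.873 within M, F and F(OVX). It was 0.788 with the F pairs averaged (adjusted permutation p = 0.0081) and 0.932 among the 16 arrays (0.0877). Insl5 and Pyy had r = 0.724 (adjusted permutation p = 0.0081) and rho = 0.692 (0.0141), with 0.582, 0.608 and 0.884, and it was 0.741 with the F pairs averaged (0.0586) and 0.774 among the 16 arrays (0.146). Gcg and Tph1 had r = 0.715 (adjusted permutation p = 0.0223) and rho = 0.731 (0.0187), with 0.529, 0.814 and 0.634, and it was 0.671 with the F pairs averaged (0.0707) and 0.495 among the 16 arrays (0.485). Each kept its sign when the 2 arrays farthest from the median of the first gene were left out, at 0.844 for Gcg and Cck, 0.708 for Cck and Nts, 0.624 for Insl5 and Pyy, and 0.509 for Gcg and Tph1.

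Chga and Chgb, both granule proteins, had r = 0.915 (adjusted permutation p = 0.0175) and rho = 0.772 (0.0168), with 0.566, 0.855 and 0.952 within M, F and F(OVX). Nts and Chga had the only negative r of the 6, at -0.794 (adjusted permutation p = 0.0175), with rho = -0.626 (0.0529) and -0.651, -0.568 and -0.898 within the 3. Without the 2 farthest arrays these were 0.892 and -0.69. With the F pairs averaged they were 0.921 (adjusted permutation p = 0.139) and -0.818 (0.0586), and Nts with Chga did not pass with scaling to the 75th percentile either (r = -0.679, adjusted permutation p = 0.108). Insl5 and Gcg, both of L-cells, had r = 0.618 (adjusted permutation p = 0.128), which was 0.13 without the 2 farthest arrays, and so rested on those. Over all 24 arrays, 3 pairs passed, Insl5 with Pyy (r = 0.768), Gcg with Cck (0.843), and Chga with Chgb (0.958), all among the 6. For the rest of the 6, r over 24 arrays was 0.406 for Cck and Nts and 0.444 for Gcg and Tph1. For Nts and Chga it turned sign, to 0.264, and was 0.856 within M. Genes measured on the same array share its depth and tissue makeup, and the part of these was not tested.

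**Figure D4:**
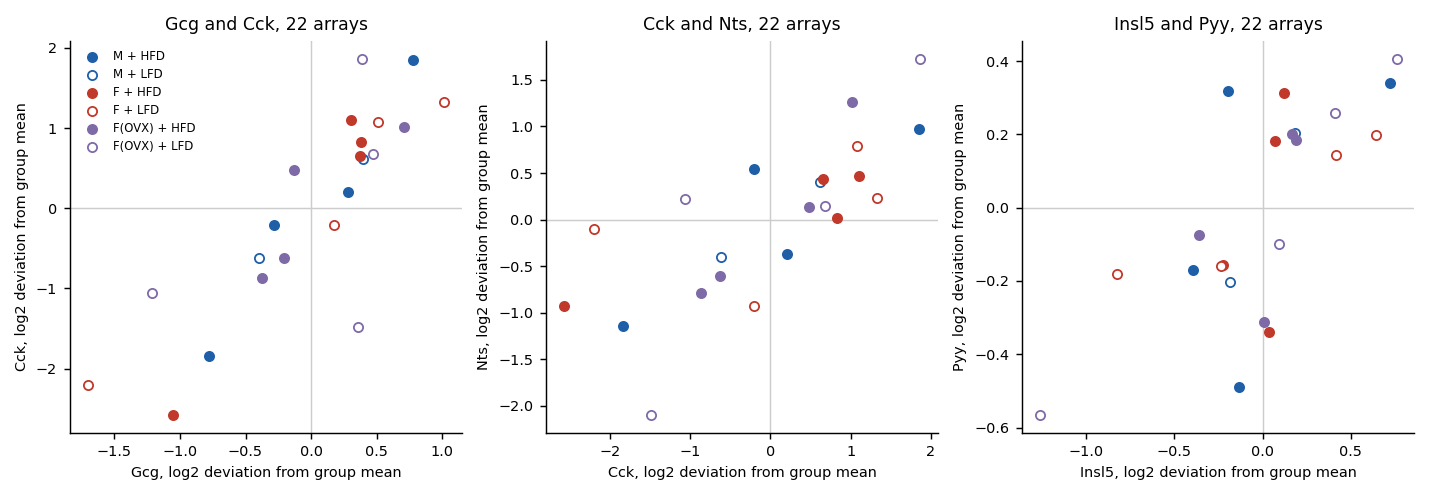
Deviation from the group mean in log2 signal on the 22 arrays other than those with low Hoxb13, for Gcg and Cck, Cck and Nts, and Insl5 and Pyy (open points LFD, filled points HFD, colors M, F and F(OVX)). The points rise from lower left to upper right, with r of 0.842, 0.756 and 0.724, and the open F(OVX) point below zero in Cck at a Gcg deviation above zero is F(OVX) + LFD replicate 2.

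The same deviations were set against those of Hoxb13 over the 22 arrays, a comparison chosen after the data had been seen, with adjustment over the 10 genes. Nts (r = -0.722, adjusted permutation p = 0.0005; rho = -0.823, 0.0011), Cck (r = -0.745, 0.0008; rho = -0.776, 0.0012) and Gcg (r = -0.638, 0.0087; rho = -0.726, 0.00637) were lower where Hoxb13 was higher. Without the 2 arrays farthest from the median of Hoxb13, r was -0.643, -0.757 and -0.594. With the F pairs averaged it was -0.766 (adjusted permutation p = 0.0001), -0.753 (0.00095) and -0.607 (0.0223), and among the 16 arrays -0.874 (0.0135), -0.875 (0.0135) and -0.776 (0.0537). Insl5 had r = 0.02 with Hoxb13 on the 22 arrays (adjusted permutation p = 0.923), and the other 6 genes had adjusted permutation p from 0.123 to 0.601. With the F pairs averaged, Chga also passed, at r = 0.344 (adjusted permutation p = 0.0465) and rho = 0.628 (0.0287). Among the 16 arrays its r was 0.499 (0.114).

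Genes whose deviations were most like those of Insl5 were sought among 14409 named genes that were well above background on at least 12 arrays, as a description. Over 24 arrays they were Pla2g2f (r = 0.92), Hoxb13 (0.90), Nans (0.90), Ppa1 (0.89) and Sval1 (0.87), and over the 22 arrays Gm35772 (0.82), Gfra3 (0.78), Pla2g5 (0.77), Gm32677 (0.75) and Chil6 (0.74), with Pyy the 7th (0.72). The 5 genes of the first list and the 5 of the second had none in common. For Gcg they were Ccn3 (0.89), Hpd (0.88) and Igf2bp2 (0.88) over 24 arrays and Igf2bp2 (0.95), Rgs17 (0.94) and Hsd3b3 (0.92) over 22. For Cck, chosen after its spread had been seen, they were Cgref1 (0.98), Apol10b (0.98) and Fabp2 (0.97), the fatty acid-binding protein of the intestine, over 22 arrays. The highest r of a member of the group with Cck was 0.84. The 3 genes were picked as the top of 14409, so that their higher r says nothing about the members.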

How the data were processed

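Spots of 24 Agilent 1-color mouse arrays, 1 per mouse, were extracted by the authors with Agilent Feature Extraction 11.0.1.1, and they deposited processed signal intensities on a linear scale, background-subtracted within an array, with flags for spots that are well above background or outliers. From these, 1967 outlier spots were set to missing, and the intensities were log2-transformed, quantile-normalized over the 24 arrays and averaged over the spots of a probe. Probe accessions were matched to RefSeq symbols (58.3% of 56605 probes), and the brightest probe stood for a gene. Coordinates are those of the promoter table, as the array annotation uses another build. Testing required that 1 of the groups compared had the gene well above background on each of its 4 arrays. Differences were fitted with limma 3.58.1 (lmFit, eBayes; R 4.3.3), on the 8 arrays of a pair or, for contrasts between pairs, on all 24, with Benjamini-Hochberg adjustment over all genes tested, and the fit was tested on simulated data. The 10 genes and all lists were chosen with earlier results of these data known. The text names the 10 genes and Hoxb13, the genes called in the other lists, and the genes most like Insl5 and Gcg. Correlations used 100000 permutations within groups (Python 3.11.15, numpy 2.4.6), with a smallest p of 1e-05. Groups and replicate numbers came from the labels, and p-values measure the spread between mice on 1 slide. The numbers match the column on the slide. Deviations of arrays with the same number correlated at 0.26, 0.38, 0.51 and 0.22 in F, and at -0.25 to 0.09 in M. In F(OVX) they correlated at 0.32, -0.06, 0.27 and 0.21. Whether the numbers pair the arrays was not tested, and only the F arrays were averaged by number. Alternatives were scaling to the 75th percentile, normexp background correction, no filter, the mean of all probes, a replicate block, Hoxb13 as a covariate, leaving out each array or the 2 with low Hoxb13, the methods' t-test, 1 fit for all arrays and, for correlations, averaged F pairs and the arrays with a lower distal Hox mean. The number of arrays limits the precision, and no saturated spot was found.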

Additional observations from a re-analysis of the deposited data

Results flagged for a closer look

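Single arrays stood far below the rest of their group in 3 cases, over 10 genes with 6 groups each. Chance alone flags about 1 of 20 groups when their levels are independent, so that some cases arise by chance. Gcg and Cck varied together, and F + HFD replicate 3 was flagged for both, so that the cases were not independent. Whether their number differs from chance was not tested. Gcg was 10.84 on F + HFD replicate 3 (the next array was at 12.20) and 9.82 on F(OVX) + LFD replicate 4 (next 11.40), and Cck was 6.59 on F + HFD replicate 3 (next 9.81). On F + LFD replicate 3, the array with the same number, Gcg and Cck were also the lowest of their group. The mean of the distal Hox genes was 9.31 on F + HFD replicate 3, 9.20 on F + LFD replicate 3 and 8.27 on F(OVX) + LFD replicate 4, all in the higher set of 6 arrays, and its part was not tested.

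The diet difference between groups was itself called for Insl5 in M minus F (2.64) and in M minus F(OVX) (2.57), and for Nts (-3.73), Pyy (1.07) and Tph1 (-1.54) in M minus F(OVX). None was called without the 2 M + LFD arrays with low Hoxb13, where the differences were 0.15 and 0.08 for Insl5, -1.13 for Nts, 0.58 for Pyy and -0.39 for Tph1.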

How the results depend on the processing

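Members called by comparison depended on the setting as follows, and the causes were not tested. In M, 2 were called, against 1 with Hoxb13 as a covariate and 0 with the methods' t-test, and 0 to 4 when each array was left out. In F, 0 were called, against 1 with scaling to the 75th percentile (Insl5), 1 with normexp (Insl5) and 1 with the replicate block (Sst), and 0 to 1 by array. In F(OVX), 2 were called, against 1 with the mean of all probes, the methods' t-test or 1 fit of 24 arrays, and 0 with Hoxb13 as a covariate, and 1 to 5 by array. For M minus F the count of 1 became 2 with normexp or the replicate block and 0 with the covariate or without the 2 arrays with low Hoxb13, and 0 to 5 by array. For M minus F(OVX) the count of 4 became 2 with no filter and 0 with the covariate or without the 2 arrays, and 1 to 6 by array. For F(OVX) minus F it was 0 to 1 by array, for the mean diet effect 1 to 2, for F(OVX) minus F levels 0 to 0. For M minus F levels the count of 3 became 1 with the covariate or without the 2 arrays, and 1 to 7 by array. The correlated pairs were 3 over 24 arrays and 6 without the 2 arrays (5 with scaling to the 75th percentile), 2 with the F pairs also averaged and 0 among the 16 arrays with the lower distal Hox mean. Over all genes, 882 were called in M, against 567 with normexp and 489 with the t-test. In F it was 264, against 80 with normexp, 125 with the t-test, 537 with the covariate, 585 with the replicate block and 627 with no filter. In F(OVX) it was 421, against 269, 209, 225 with the covariate, 843 with no filter and 251 with 1 fit. The replicate block moved M to 960 and F(OVX) to 555. When 1 array was left out, the counts ran from 584 (without M + HFD replicate 1) to 1511 (M + LFD replicate 4) in M, from 163 (F + LFD replicate 4) to 733 (F + LFD replicate 2) in F, and from 218 (F(OVX) + HFD replicate 2) to 708 (F(OVX) + LFD replicate 3) in F(OVX).

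Signs turned for differences near zero or resting on 1 or 2 arrays. In M with the covariate, Gcg was -0.013, Sst 0.46, Nts 0.060, Tph1 0.44, Chga 0.54 and Chgb 0.43. Without the 2 arrays, Gcg was -0.038, Sst 0.33, Tph1 0.40, Chga 0.57 and Chgb 0.42. With the covariate, Nts was 0.11 in F and -0.087 in F(OVX), and Insl5 in M minus F(OVX) was -0.44. When each array was left out, differences on both sides of zero were found in M for Gcg (-0.16 to 0.36), Chga (-0.40 to 0.23), Chgb (-0.64 to 0.0010) and Neurod1 (-0.065 to 0.36). In F they were found for Gcg (-0.22 to 0.70), Cck (-0.43 to 1.16), Nts (-0.36 to 0.26), Tph1 (-0.13 to 0.55) and Chgb (-0.053 to 0.15), with the lowest values of Gcg, Cck, Tph1 and Chgb without F + LFD replicate 3. In F(OVX) they were found for Pyy (-0.26 to 0.062) and Neurod1 (-0.023 to 0.66). Of the values for single genes, 628 kept direction and call, 20 gained a call, 88 lost one and 33 turned sign. Signal over background limits Nts and Neurod1, each with 1 array not well above it.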
